A study of Mus musculus with 8 samples.

Results

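The lysosomal cathepsins, legumain and the cathepsin inhibitor cystatin C were examined as a family in hematopoietic stem cells (HSCs) of mice with hemolytic anemia. The members were chosen by name as 10 genes: Ctss, Lgmn, Ctsa, Ctsb, Ctsc, Ctsd, Ctsh, Ctsl, Ctsz and Cst3. Of these, Ctss and Lgmn had been selected on their rise in spleen HSCs of anemic mice, so their values in the comparisons with spleen HSCs are given as a description with no test. The question was whether the other 8 members follow them. All 10 were among the 15142 genes listed in every group's table, and all 10 were among the 11347 genes that reached 1 FPKM in at least 2 libraries and were tested. FPKM is a fragment count corrected for gene length and sequencing depth. For most members the length used was the summed length of all annotated exons, such as 6489 bases for Ctsl and 1266 for Cst3. That length can differ from that of the transcript expressed, so levels of different genes compare only roughly.

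RNA-seq was performed on wild-type C57BL/6 mice of both sexes, aged 8 to 12 weeks, in 3 groups. Control BM HSC (3 libraries) were bone marrow HSCs of mice labelled as given PBS. PHZ BM HSC (3 libraries) and PHZ SP HSC (2 libraries) were bone marrow and spleen HSCs of mice given phenylhydrazine (PHZ), a compound that destroys red blood cells, at 60 mg/kg in 2 intraperitoneal injections and taken 3 days after the last. The sort gate, in both tissues, was LSK CD150+CD48-/low after lineage staining for Ter119, B220, Gr-1, CD2, CD3 and CD8, a cocktail in which no antibody to F4/80, CD11b or NK1.1 is named. Without spleen HSCs of mice that had no PHZ, which are not analysed here, tissue and treatment cannot be told apart in the contrast of PHZ SP with control BM HSC. The marrow columns of the deposited tables are named WBM, while the sample titles call these samples BM HSC, and they were taken as sorted HSCs. The labels do not say whether a library came from an animal of its own or from pooled animals, and p-values measure the spread between these libraries, which may be in part technical.

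Cathepsins are proteases of the lysosome, the acidic compartment in which cells break down protein taken up from outside or delivered from within. They are made as inactive precursors, tagged with mannose 6-phosphate, sorted to the lysosome and activated there by cleavage. Cathepsins B, C, H, L, S and Z and legumain cut with a cysteine in the active site, cathepsin D with aspartic acids and cathepsin A with a serine. Cystatin C, the product of Cst3, is a secreted inhibitor of cysteine cathepsins. In the spleen these enzymes are best known from macrophages, which digest damaged red blood cells, and from antigen-presenting cells, in which cathepsin S trims the invariant chain from MHC class II molecules.

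The libraries held 8223343 to 13214051 reads in genes, with 43.3% to 48.5% of them in Rn45s, the precursor of ribosomal RNA. All 14 HSC markers on a fixed list (among them Kit, Ly6a, Slamf1, Procr and Mecom) were at 1 FPKM or more in every library of each group, and the labelled cell type was kept. Of 20 macrophage and monocyte markers, 9 could be tested and none passed an adjusted p of 0.05 in any of the 3 comparisons. Adgre1 (F4/80) reached at most 0.287 FPKM in any library, Csf1r 0.567, Siglec1 0.196 and Vsig4 0.130. Other markers on the list differed in either direction at low levels: C1qb was at 0.0822 and 0 FPKM in PHZ SP HSC and 0.188 to 3.52 in marrow (log2 difference from control BM HSC -1.31, limma adjusted p = 0.278), Marco was at 0.604 and 0.200 FPKM in PHZ SP HSC and at 0 in every marrow library, Mrc1 at 1.01 in 1 spleen library and 0.0603 in the other against at most 0.121, and Cx3cr1 at 0.496 and 0.235 against at most 0.103. Cd14 was at 0, 0 and 0.190 FPKM in control BM HSC, 1.69, 1.62 and 0.660 in PHZ BM HSC, and 1.42 and 0.703 in PHZ SP HSC, with log2 differences from control BM HSC of 1.10 (limma adjusted p = 0.0964) and 0.94 (adjusted p = 0.226). C1qa, C1qb, Cd163, Spic and Ly6c2 reached 3.15, 3.52, 3.17, 5.33 and 4.91 FPKM in their highest libraries, of which that of Ly6c2 was a spleen library. Cd68, a lysosomal membrane protein used as a macrophage marker but not on this list, and named after its values had been seen, was at 0, 4.58 and 8.48 FPKM in control BM HSC, 4.93, 9.74 and 16.7 in PHZ BM HSC, and 34.4 and 57.6 in PHZ SP HSC (log2 difference from control BM HSC 3.60, limma adjusted p = 0.0582). Their part in the levels of the members was not tested. The lysozyme gene Lyz2 was high in all groups (181 to 310 FPKM), and without it the summed level of the list was 6.69 to 16.3 FPKM in control BM HSC, 8.93 to 15.9 in PHZ BM HSC and 10.0003 to 17.6 in PHZ SP HSC. In bulk RNA, fewer cells of a type and less RNA per cell cannot be told apart.

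The sequences around the transcription start are shown for both chosen genes, Ctss and Lgmn, and for Ctsd, the protease gene with the highest level, which did not follow them. Each is 250 bases before and 30 after the start, from RefSeq on build GRCm38.p6 (the build mm10 to which reads were mapped), with 3 motifs in capitals on either strand: CACGTG, the core of the E-box that lysosomal gene regulators of the TFEB family bind, AGGAAGT, a sequence bound by ETS factors such as PU.1, and GAAA repeated after 2 bases, as in elements bound by interferon regulatory factors.
Ctss, chr3:95526536-95526815, plus strand: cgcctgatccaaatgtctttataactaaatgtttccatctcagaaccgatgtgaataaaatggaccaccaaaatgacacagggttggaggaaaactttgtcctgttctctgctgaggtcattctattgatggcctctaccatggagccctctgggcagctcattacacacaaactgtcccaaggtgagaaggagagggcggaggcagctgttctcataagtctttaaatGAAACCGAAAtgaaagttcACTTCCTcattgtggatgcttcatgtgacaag
Lgmn, chr12:102439699-102439978, minus strand: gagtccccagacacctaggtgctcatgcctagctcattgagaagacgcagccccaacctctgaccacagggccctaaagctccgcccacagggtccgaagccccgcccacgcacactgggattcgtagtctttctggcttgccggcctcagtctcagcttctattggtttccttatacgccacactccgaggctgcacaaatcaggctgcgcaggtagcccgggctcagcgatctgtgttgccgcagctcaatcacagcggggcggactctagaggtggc
Ctsd, chr7:142387798-142388077, minus strand: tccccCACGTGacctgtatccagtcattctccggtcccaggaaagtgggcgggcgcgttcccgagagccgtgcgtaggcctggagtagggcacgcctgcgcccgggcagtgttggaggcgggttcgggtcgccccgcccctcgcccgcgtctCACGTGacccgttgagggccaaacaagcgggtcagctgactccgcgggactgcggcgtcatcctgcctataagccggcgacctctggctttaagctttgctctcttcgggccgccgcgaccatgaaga
In these letters the Ctss start carried an ETS match across the start and a GAAA repeat just before it, with no E-box, the Lgmn start carried none of the 3, and the Ctsd start carried 2 E-boxes. Over the full windows of 300 bases, 8 members had at least 1 window, with 10 windows between them. Members are counted per gene with a match in any window, while the background shares are per window, so these figures are not like for like. CACGTG was found in 4 of the 8 members (Lgmn, at a second start within the gene, Ctsa, Ctsd and Ctsl) and in 7.15% of all 32851 windows. AGGAAGT was found in 2 (Ctss and Ctsc) and in 9.35% of all windows, and the GAAA repeat in Ctss and in 3.44% of all windows. The motifs were picked after the sequences had been seen, no motif was shared by Ctss and Lgmn, and a match is a run of letters, not a binding site.

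Ctss encodes cathepsin S, an endopeptidase that stays active at neutral pH. Its gene lies on chromosome 3 (95526786 to 95556405). In control BM HSC its level was 5.05, 6.35 and 10.8 FPKM, in PHZ BM HSC 15.1, 15.5 and 20.3, and in PHZ SP HSC 47.7 and 59.8. No 2 groups overlapped, and the order was control BM HSC, PHZ BM HSC, PHZ SP HSC. The mean in PHZ SP HSC was 7.27 times that in control BM HSC and 3.17 times that in PHZ BM HSC. On the log2(FPKM + 1) scale the differences were 2.76 (95% interval 2.14 to 3.37) and 1.61 (0.996 to 2.22). These differences chose the gene and were not tested.

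Lgmn encodes legumain, which cuts after asparagine and takes part in the maturation of several cathepsins. It lies on chromosome 12 (102394082 to 102439728). Its level was 0.617, 0.857 and 0.938 FPKM in control BM HSC, 1.56, 1.51 and 1.80 in PHZ BM HSC, and 10.05 and 9.89 in PHZ SP HSC. The groups stood in the same order as for Ctss, again without overlap, with both spleen libraries far above the rest. The marrow values rested on few reads, 14 to 28 per library in control BM HSC and 33 to 54 in PHZ BM HSC, against 239 and 261 in PHZ SP HSC. The mean in PHZ SP HSC was 12.4 times that in control BM HSC and 6.14 times that in PHZ BM HSC, with log2(FPKM + 1) differences of 2.61 (95% interval 2.05 to 3.17) and 2.07 (1.51 to 2.62). These too are a description. Because the added 1 FPKM damps low genes, the log2 difference from control BM HSC was 3.50 with 0.1 FPKM added and 3.60 by limma's voom method on reads worked back from the FPKM values.

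**Figure D1:**
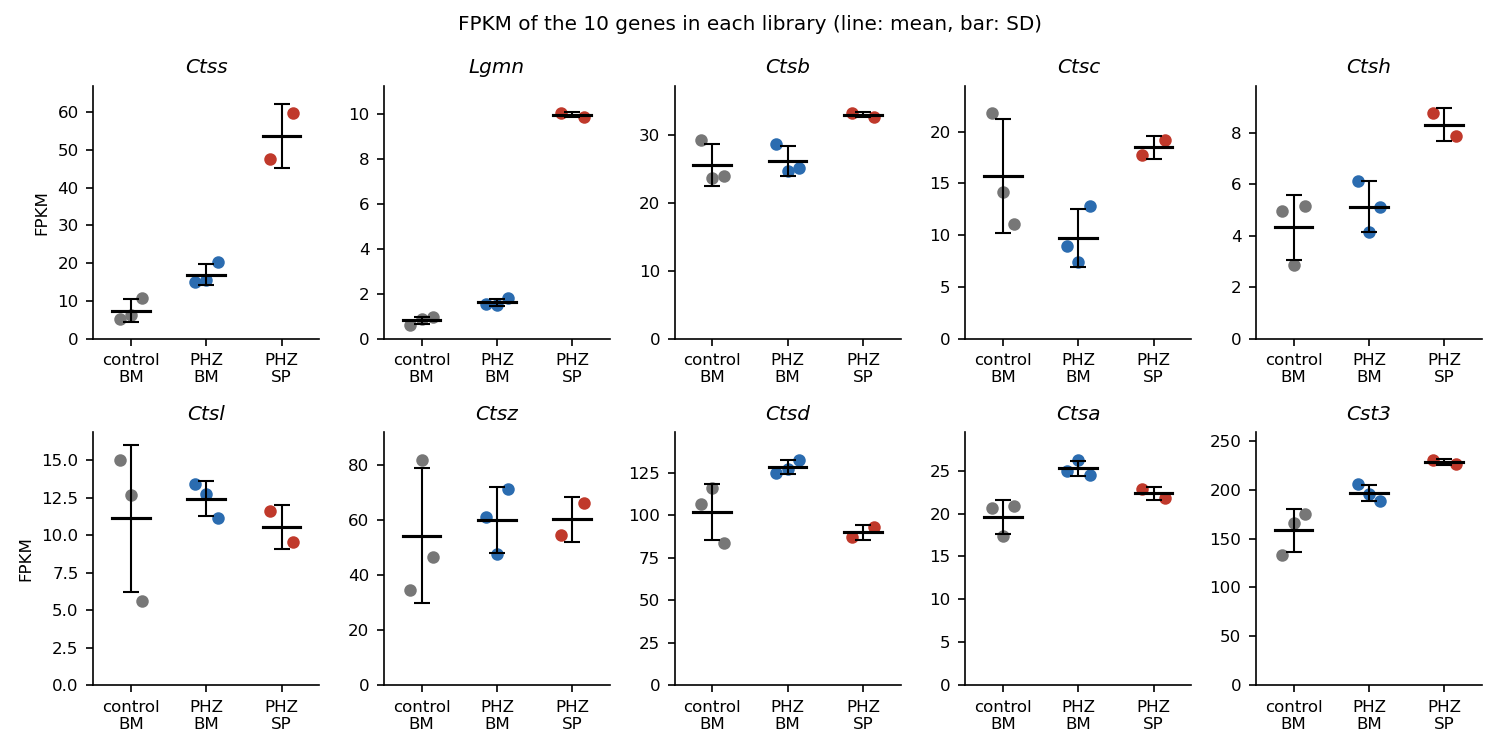
FPKM (vertical axes, each from 0) of the 10 genes in the 3 control BM HSC (grey), 3 PHZ BM HSC (blue) and 2 PHZ SP HSC (red) libraries, with the mean (line) and SD (bar) of each group. Ctss, Lgmn and Cst3 rank control BM, PHZ BM, PHZ SP with no overlap, while Ctsd and Ctsa are highest in PHZ BM and Ctsl and Ctsz overlap between groups.

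The other 8 members gave no call between PHZ SP and control BM HSC. None of the 8 passed an adjusted p of 0.05 by limma, against 0.758% of all genes tested. At an unadjusted p under 0.05 the count was 2 of 8 (Cst3 and Ctsh), against 15.8% of all genes tested, and voom also called none. Their median log2 difference was 0.25, with 7 of 8 above 0, beside a median of -0.00 over all genes tested, of which 49.9% were above 0. The highest was Ctsh at 0.84, and the highest upper bound of a 95% interval was 1.45, also Ctsh. Leaving out any library or changing the scaling, filter, pseudocount or fit brought none of the 8 past the threshold.

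Cst3 (chromosome 2, 148871722 to 148875512), which encodes cystatin C, had the highest mean FPKM of the members. Its level was 133, 166 and 176 FPKM in control BM HSC, 206, 196 and 188 in PHZ BM HSC, and 231 and 227 in PHZ SP HSC. The groups did not overlap and stood in the order seen for Ctss and Lgmn, with a much smaller step. The log2 difference between PHZ SP and control BM HSC was 0.54 (95% interval 0.23 to 0.85, limma adjusted p = 0.0999), a ratio of means of 1.44. Between the PHZ groups it was 0.22 (-0.09 to 0.53, adjusted p = 0.544).

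Ctsh encodes cathepsin H, an aminopeptidase, and lies on chromosome 9 (90054267 to 90076095). Its level was 4.96, 2.86 and 5.14 FPKM in control BM HSC, 6.11, 4.12 and 5.12 in PHZ BM HSC, and 8.77 and 7.88 in PHZ SP HSC. Both spleen libraries lay above all marrow libraries, and the marrow groups overlapped. The log2 difference was 0.84 (95% interval 0.23 to 1.45, adjusted p = 0.175) against control BM HSC and 0.62 (0.01 to 1.23, adjusted p = 0.362) against PHZ BM HSC, neither past the threshold by limma.

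Ctsb, encoding cathepsin B, which acts as both an endopeptidase and a dipeptidase and is among the most abundant lysosomal cysteine proteases, lies on chromosome 14 (63122462 to 63145923). It was at 29.2, 23.7 and 24.0 FPKM in control BM HSC, 28.8, 24.7 and 25.1 in PHZ BM HSC, and 33.3 and 32.7 in PHZ SP HSC. Spleen libraries were the highest here too, but only 1.29 times the control mean. The log2 difference was 0.36 (95% interval -0.03 to 0.74, adjusted p = 0.353) against control BM HSC and 0.32 (-0.06 to 0.71, adjusted p = 0.459) against PHZ BM HSC by limma.

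Ctsc encodes cathepsin C, or dipeptidyl peptidase I, which activates the granule serine proteases of neutrophils, mast cells and cytotoxic lymphocytes. The gene lies on chromosome 7 (88278024 to 88315861). Its level was 21.8, 14.1 and 11.1 FPKM in control BM HSC, 8.92, 7.44 and 12.8 in PHZ BM HSC, and 17.7 and 19.2 in PHZ SP HSC. PHZ BM HSC had the lowest mean, the spleen libraries lay above all of PHZ BM HSC, and both lay within the range of control BM HSC. The log2 difference between the PHZ groups was 0.89 (95% interval 0.25 to 1.53, limma adjusted p = 0.205), the largest of the 8 tested members in that comparison, and that between PHZ BM and control BM HSC was -0.62 (-1.19 to -0.04, adjusted p = 0.263).

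For Ctsl and Ctsz the libraries of the groups overlapped in each comparison. Ctsl, encoding the endopeptidase cathepsin L (chromosome 13, 64361890 to 64370772), was at 15.04, 12.7 and 5.63 FPKM in control BM HSC, 13.4, 12.8 and 11.1 in PHZ BM HSC, and 11.6 and 9.52 in PHZ SP HSC. The third control library held the lowest value, and without it the log2 difference between PHZ SP and control BM HSC turned from 0.02 to -0.36. Ctsz, encoding the carboxypeptidase cathepsin Z (chromosome 2, 174427494 to 174439039), was at 34.4, 82.0 and 46.7 FPKM in control BM HSC, 61.2, 47.6 and 71.4 in PHZ BM HSC, and 54.4 and 66.1 in PHZ SP HSC. Its control libraries spanned the values of every other library. The intervals against control BM HSC, -0.71 to 0.75 for Ctsl and -0.44 to 0.90 for Ctsz, leave room for a change of either sign.

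Ctsd and Ctsa, whose products do not use a cysteine, were highest in PHZ BM HSC. Ctsd encodes cathepsin D, the main aspartic protease of the lysosome (chromosome 7, 142375910 to 142387827). Its level was 107, 116 and 83.8 FPKM in control BM HSC, 125, 127 and 133 in PHZ BM HSC, and 87.1 and 93.3 in PHZ SP HSC. The spleen libraries lay below all of PHZ BM HSC and inside the control range. The log2 difference was -0.51 (95% interval -0.85 to -0.16, limma adjusted p = 0.180) between the PHZ groups and -0.17 (-0.51 to 0.18, adjusted p = 0.648) between PHZ SP and control BM HSC. Ctsa encodes cathepsin A, a carboxypeptidase that also protects beta-galactosidase and neuraminidase from degradation (chromosome 2, 164832872 to 164841032). It was at 20.7, 17.4 and 20.9 FPKM in control BM HSC, 24.96, 26.3 and 24.5 in PHZ BM HSC, and 22.9 and 21.8 in PHZ SP HSC. PHZ BM HSC lay above both other groups, and the log2 difference of PHZ SP HSC was -0.17 (-0.56 to 0.22, adjusted p = 0.740) from PHZ BM HSC and 0.18 (-0.20 to 0.57, adjusted p = 0.656) from control BM HSC.

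**Figure D2:**
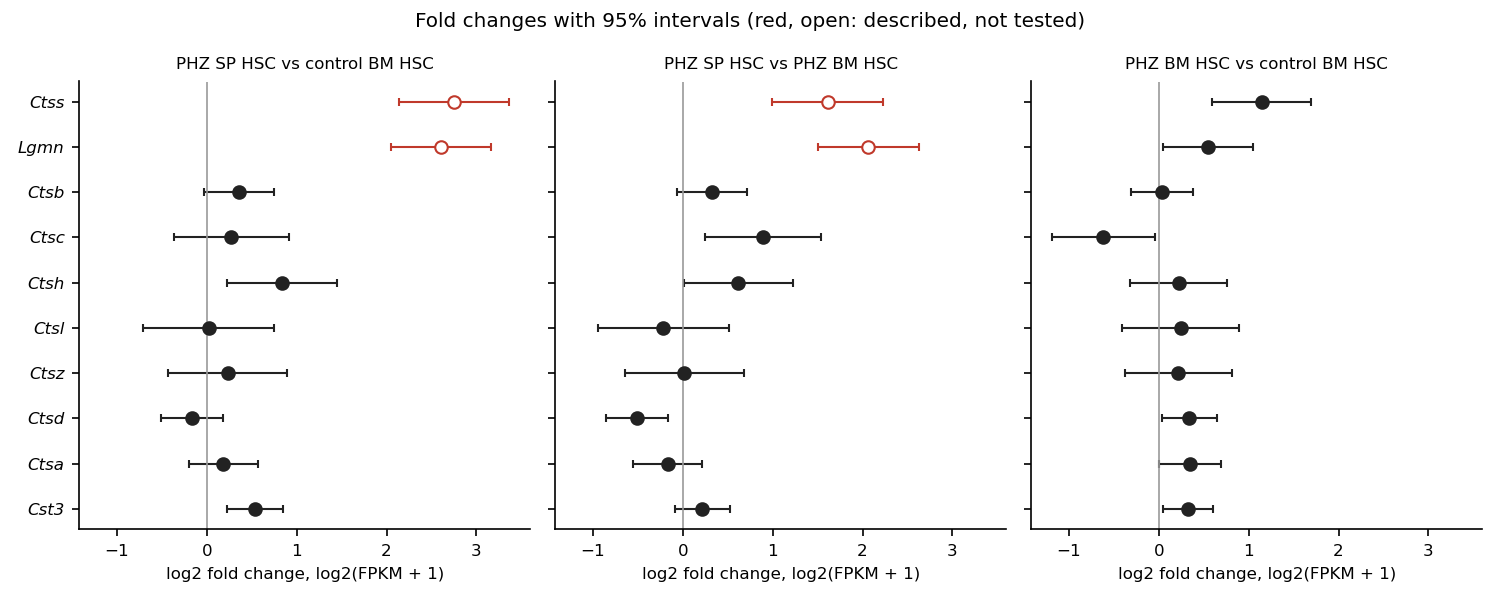
Log2 differences of the 10 genes in the 3 comparisons (horizontal axis, log2(FPKM + 1) scale, the first group minus the second) with unadjusted 95% intervals from limma. Ctss and Lgmn (red, open) are described and not tested in both comparisons with PHZ SP HSC and stand at 1.61 to 2.76, while the other 8 genes (black) lie between -0.51 and 0.89 there.

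Between PHZ SP and PHZ BM HSC, the 8 other members again gave no call by limma at an adjusted p of 0.05, against 0.978% of all genes tested. The count was 3 at an unadjusted p under 0.05 (Ctsc and Ctsh higher, Ctsd lower), against 13.5% of all genes tested, and 0 by voom. Their median log2 difference was 0.12, beside -0.02 over all genes tested, with 5 higher and 3 lower in the spleen, where 48.2% of all genes were higher. Libraries of both groups did not overlap for 6 of the 8 (Ctsb, Ctsc, Ctsh and Cst3 higher, Ctsa and Ctsd lower), and 34.8% of all genes tested did not overlap in this comparison. For PHZ SP and control BM HSC the count was 4 of 8 (Ctsa, Ctsb, Ctsh and Cst3, all higher) against 28.9% of all genes. Both comparisons share the PHZ SP HSC libraries.

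The comparison of PHZ BM HSC with control BM HSC was not used to choose any member, so all 10 were tested, although it shares its control libraries with the first comparison and its PHZ libraries with the second. Ctss rose, at 1.14 on the log2 scale (95% interval 0.60 to 1.69, limma adjusted p = 0.0347), a ratio of means of 2.30. It was the only member past the threshold, 1 of 10 against 2.74% of all genes tested. This call was narrow: it held under 6 of the 17 alternatives, with adjusted p between 0.0135 and 0.121 and a log2 difference between 0.94 and 1.42 over all of them. It was lost on leaving out any library other than the third control library, and by voom on the reads.

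Lgmn differed by 0.54 (95% interval 0.04 to 1.04, adjusted p = 0.257) in that comparison and did not pass. Cst3 (0.32, adjusted p = 0.227), Ctsd (0.34, adjusted p = 0.248) and Ctsa (0.35, adjusted p = 0.291) were likewise higher in every PHZ BM HSC library than in any control library without passing by limma. Libraries did not overlap for 5 of the 10 members, against 23.9% of all genes tested. At an unadjusted p under 0.05 the members numbered 6 of 10 (5 higher), against 16.6% of all genes, and 9 of 10 were higher in PHZ BM HSC, against 51.2% of all genes. Besides Ctsc, given above, the remaining members were Ctsh at 0.22, Ctsl at 0.24, Ctsz at 0.21 and Ctsb at 0.03, with adjusted p between 0.711 and 0.946. The median over the 10 was 0.28, beside 0.01 over all genes tested.

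The make-up of the protease transcripts differed in PHZ SP HSC through both chosen genes. As a share of the summed FPKM of the 7 cysteine protease genes, Ctss took 4.54%, 4.45% and 10.3% in control BM HSC, 11.2% to 13.7% in PHZ BM HSC, and 26.0% and 29.1% in PHZ SP HSC. Lgmn took 0.555% to 0.899%, 1.15% to 1.33%, and 4.82% and 5.48% in the same order. Ctsz held the largest share on average, 44.4% ± 13.3 (SD, n = 3) in control BM HSC, 45.2% ± 3.26 (n = 3) in PHZ BM HSC and 30.9% ± 1.81 (n = 2) in PHZ SP HSC. The summed level of the 7 was 119 ± 20.5 FPKM (SD, n = 3), 132 ± 17.2 (n = 3) and 194 ± 15.3 (n = 2), so that the ratio of Cst3 to this sum was 1.35 ± 0.290, 1.51 ± 0.224 and 1.18 ± 0.109. These shares, sums and ratios rest on the length used for each gene. They contain the values that chose Ctss and Lgmn and are given as a description.

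**Figure D3:**
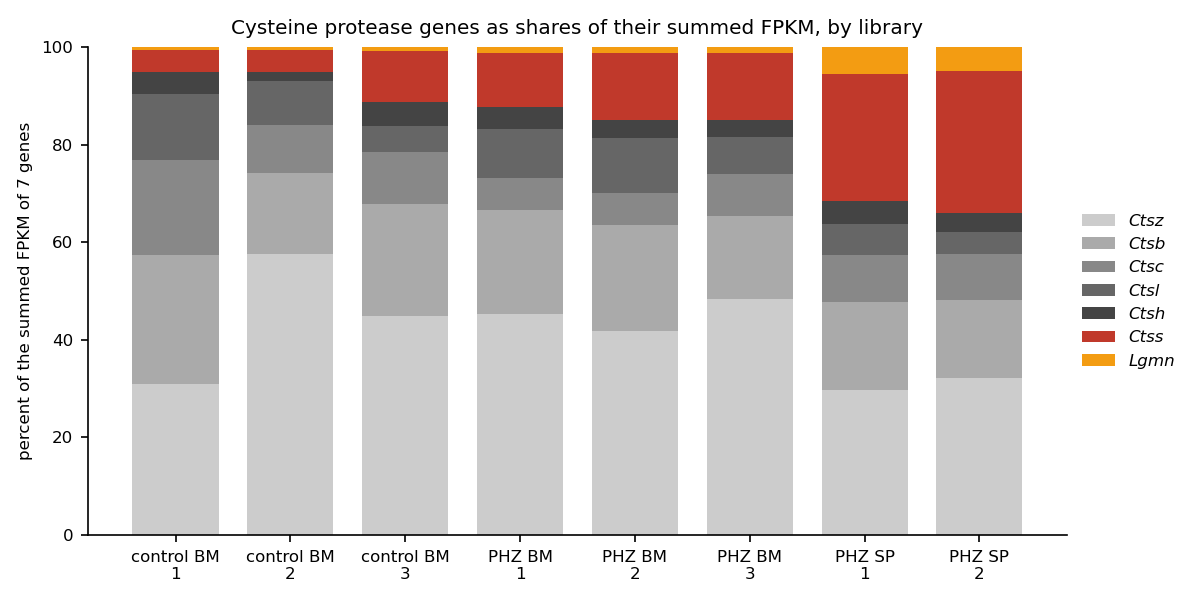
Share (percent, vertical axis from 0) of each of the 7 cysteine protease genes in their summed FPKM, in each of the 8 libraries (bars). Ctss (red) and Lgmn (orange) widen from the control BM to the PHZ SP libraries, in which Ctss takes 26.0% and 29.1%.

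The wider lysosomal gene set was examined through lists of other cathepsins, cystatins, peptidases, glycosidases, sulfatases and related hydrolases, sphingolipid activators, membrane proteins, proton pump (V-ATPase) subunits and mannose 6-phosphate sorting genes. Of 154 genes on these lists 112 were tested. None passed an adjusted p of 0.05 by limma between PHZ SP and control BM HSC (0.758% of all genes did), 19 had an unadjusted p under 0.05 (15.8% of all genes did), and their median log2 difference was 0.17, beside -0.00 over all genes tested, with 78 of the 112 (69.6%) higher, against 49.9% of all genes. Between PHZ SP and PHZ BM HSC 2 fell and none rose, against 0.978% of all genes called, and 19 had an unadjusted p under 0.05, against 13.5% of all genes, with a median of 0.00, beside -0.02, and 56 of the 112 higher, against 48.2% of all genes. Between PHZ BM and control BM HSC 3 rose and none fell, a share near the 2.74% of all genes called, and 22 had an unadjusted p under 0.05, against 16.6% of all genes, with a median of 0.20, beside 0.01, and 77 of the 112 higher, against 51.2% of all genes.

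**Figure D4:**
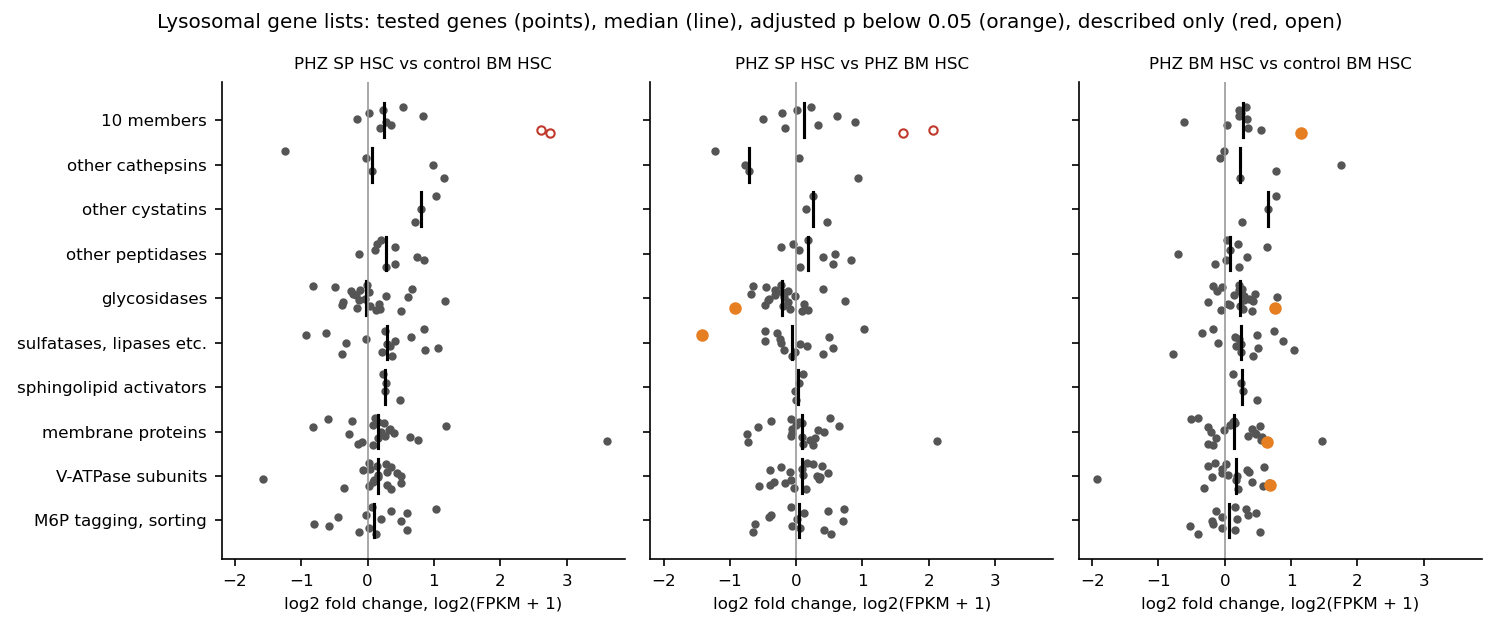
Log2 differences (horizontal axis, log2(FPKM + 1) scale) of the tested genes on each lysosomal list (points) and the list's median (line) in the 3 comparisons. Genes past an adjusted p of 0.05 are orange, and Ctss and Lgmn are red and open, and left out of the median, where they were not tested. Most points lie near 0, and no list gene passes between the PHZ SP and control BM libraries.

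The 4 genes behind these calls all had their highest mean in PHZ BM HSC. Gaa, the acid alpha-glucosidase that degrades lysosomal glycogen, was at 17.5, 17.8 and 19.8 FPKM in control BM HSC, 33.7, 33.2 and 28.9 in PHZ BM HSC, and 16.5 and 16.2 in PHZ SP HSC. It rose by 0.77 between the marrow groups (limma adjusted p = 0.0259) and fell by 0.92 from PHZ BM HSC to PHZ SP HSC (adjusted p = 0.0369). Dnase2a, the lysosomal DNase that clears the DNA of expelled erythroblast nuclei in macrophages, fell by 1.42 in the latter comparison (adjusted p = 0.0287), from 8.91, 7.12 and 6.79 FPKM to 1.72 and 2.75. Cd63, a tetraspanin of lysosomes and granules, rose by 0.64 (adjusted p = 0.0478) and Atp6v0b, a V-ATPase subunit, by 0.68 (adjusted p = 0.0313) from control BM HSC to PHZ BM HSC.

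Lists with no gene past the threshold included the closest relatives of the members. Among 5 tested other cathepsins the most abundant were Ctse, an aspartic protease known from red cells and antigen-presenting cells, at 9.36 to 13.4 FPKM in control BM HSC, 11.5 to 13.6 in PHZ BM HSC, and 20.3 and 31.1 in PHZ SP HSC (log2 difference from control BM HSC 1.15, limma adjusted p = 0.0554), and Ctso, at 11.5 to 20.6 FPKM with a difference of -0.02. Among 3 tested other cystatins the most abundant was Cstb, the cytosolic inhibitor stefin B, at 43.1 to 53.0, 54.0 to 58.4, and 92.7 and 64.5 FPKM (0.72, adjusted p = 0.0935), followed by Cst7 at 0 to 4.58 FPKM over all libraries (1.03, adjusted p = 0.485). Of the other lists without a call, the most abundant genes were Napsa (0.14) and Ppt1 (0.11) among 9 tested peptidases, the saposin precursor Psap (0.49, adjusted p = 0.101) and Gm2a (0.26) among 4 sphingolipid activators, and M6pr (0.02) and Grn (0.07) among 14 tested sorting genes.

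Among 11 tested regulators of lysosomal or myeloid genes 1 passed, between the marrow groups, where 2.74% of all genes tested passed. Spi1, which encodes PU.1, was at 29.3, 23.9 and 30.8 FPKM in control BM HSC, 46.7, 43.9 and 52.2 in PHZ BM HSC, and 47.4 and 43.0 in PHZ SP HSC. Its rise of 0.75 between the marrow groups passed (limma adjusted p = 0.0268), and that of 0.68 between PHZ SP and control BM HSC did not (adjusted p = 0.0976). Of 11 tested MHC class II genes and loading partners 1 passed, between the PHZ groups, where 0.978% of all genes tested passed. Cd74, the invariant chain that cathepsin S trims, was at 86.5, 97.2 and 86.1 FPKM in control BM HSC, 72.6, 54.9 and 61.5 in PHZ BM HSC, and 125 and 129 in PHZ SP HSC. It rose by 1.004 between the PHZ groups (limma adjusted p = 0.0146). From control BM HSC it differed by 0.49 in PHZ SP HSC (adjusted p = 0.159) and by -0.51 in PHZ BM HSC (adjusted p = 0.0822). Of the 11 genes, 5 were higher in PHZ SP than in control BM HSC, against 49.9% of all genes.

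Genes whose levels followed those of Ctss and Lgmn most closely over the 8 libraries were taken by Pearson's r of log2(FPKM + 1). For Ctss they were Alkbh1 (r = 0.983), Dnajb4 (0.982), Ermap (0.979), Tfrc (0.972) and Vim (0.972). For Lgmn they were Ank1 (r = 0.990), Pdia2 (0.982), Cldn13 (0.978), S100a4 (0.978) and Add2 (0.976). Vim stood at means of 78.3, 113 and 268 FPKM and S100a4 at 31.1, 51.2 and 472 in control BM HSC, PHZ BM HSC and PHZ SP HSC. Ctss and Lgmn correlated with each other at r = 0.949, and of the other members Cst3 came closest to Ctss (0.908) and Ctsh to Lgmn (0.818). With Ctss and Lgmn, r was negative for Ctsd (-0.321 and -0.460) and weak for Ctsl (-0.206 and -0.102). The 8 points share 3 groups, and these values describe that shared order.

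The summed levels of the erythroid and of the neutrophil markers were highest in PHZ SP HSC, though the neutrophil marker Prtn3 had its highest mean in PHZ BM HSC. Elane and Mpo did so too, but only through the second PHZ BM HSC library. Elane was at 1.94, 18.6 and 2.67 FPKM there against 7.72 and 6.74 in PHZ SP HSC. Mpo was at 0.557, 12.0 and 0.294 against 2.87 and 3.09. Of 8 tested erythroid markers 5 rose between PHZ SP and control BM HSC, where 0.758% of all genes tested passed in either direction. Among them were Slc4a1 (2.51), Hbb-bt (2.51) and Hba-a1 (2.27), with limma adjusted p between 0.00390 and 0.0240, and Klf1 (2.01), named after its values had been seen. The summed level of the erythroid list was 125 to 293 FPKM in control BM HSC, 182 to 341 in PHZ BM HSC, and 1011 to 1158 in PHZ SP HSC. Of 11 tested neutrophil markers S100a8 (1.72, adjusted p = 0.0422) and Retnlg (2.60, adjusted p = 0.0470) rose, with summed levels of 444 to 757, 520 to 1102, and 1463 to 1885 FPKM. Between the PHZ groups Hbb-bt (2.21), Slc4a1 (2.01), S100a8 (1.77) and Klrb1c (2.30) rose as well, with adjusted p between 0.00477 and 0.0281, and between the marrow groups Prtn3 (0.96, adjusted p = 0.00750) and Gata2 (0.86, adjusted p = 0.0180), a gene of HSCs and mast cells, rose and Pf4 (-1.06, adjusted p = 0.0424) and Ppbp (-1.46, adjusted p = 0.0265), of megakaryocytes, fell. Klrb1c, which encodes the natural killer receptor NK1.1, rose by 3.19 (adjusted p = 8.66e-04), from 0.555 to 1.40 FPKM in control BM HSC to 14.7 and 18.4 in PHZ SP HSC, while the other natural killer gene on the list above the filter, Nkg7, was at 26.9 and 27.9 in PHZ SP HSC and 19.1 to 59.7 in control BM HSC. Of the genes under the filter, Klrd1 was at 1.117 and 0.750 FPKM in PHZ SP HSC against at most 0.425 in marrow, Il2rb at 0.793 and 0.112 against at most 0.0726, and Cd3g at 0.328 and 0.588 against at most 0.166, while Prf1 was at 0 in both spleen libraries against at most 0.210 and Ncr1 at 0 and 0.0624 against at most 0.138. In the summed levels, B cell markers were at 27.4 to 50.6, 29.1 to 31.3 and 38.7 to 54.6 FPKM, dendritic cell markers at 4.53 to 6.62, 8.05 to 12.7 and 9.002 to 9.07, mast cell and basophil markers at 40.7 to 48.0, 70.2 to 93.6 and 61.1 to 80.4, and megakaryocyte and platelet markers at 130 to 154, 91.6 to 113 and 90.5 to 147, in the same order of groups. Most of the mast cell and basophil sum was Gata2, which is also on the HSC marker list. Gata2 alone was at 36.2 to 47.7, 66.7 to 86.3, and 58.0 and 72.9 FPKM in that order of groups. The part of any of these marker lists in the levels of Ctss and Lgmn was not tested.

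How reads were assigned limits some members. The counter, the annotation and the use of strand are not given in the sources used here, and exons of Ctsa (with Neurl2 and Pltp), Ctsb (with Fdft1) and Ctsz (with Nelfcd) overlap genes on the opposite strand, while Ctsd and Ctsl overlap other annotated transcripts, so their levels are uncertain by the reads those genes could share. Ctss, Lgmn, Ctsc, Ctsh and Cst3 had no overlapping exon of another gene in the annotation used here.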

How the data were processed

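RNA of sorted HSCs was reverse transcribed and amplified by SMART-Seq2, and Nextera XT was used for library construction. Per the submitters' processing notes, reads were mapped to mm10 with STAR. The authors deposited FPKM values in a table per group, and tables of their own DESeq2 comparisons (fold changes and p-values), which were not used. Reads were worked back from the FPKM steps (110442 of 110442 values above 0 came out whole within 0.001 reads), and FPKM values of the 3 tables, which may have been scaled separately, were put on a common scale by median-of-ratios factors over the 8 libraries, a change of at most 1.05% per library. Genes with at least 1 FPKM in at least 2 libraries were tested with limma 3.58.1 (R 4.3.3; trend and robust) on log2(FPKM + 1), all 8 libraries in a single fit, two-sided, with Benjamini-Hochberg adjustment over 11347 genes and a threshold of 0.05. A pseudocount of 1 FPKM understates changes of low genes. The fit was tested on simulated data. Alternatives were voom on the recovered reads, another pseudocount, filter, scaling and variance model, a fit to the 2 groups compared, a replicate block, and leaving out each library. The members and gene lists were chosen with earlier results of these data known. All members were named. Of each list, genes past the threshold were named (at most 4 per list and comparison, by p), or the 2 most abundant by mean FPKM where there were none. Some marker genes on the lists are counted but not reported here by name.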

Additional observations from a re-analysis of the deposited data

How the results depend on the processing

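Of 441 tested member differences under the alternatives, 416 kept their direction and their side of the threshold, and none of the 8 members other than Ctss and Lgmn passed under any alternative. For Lgmn, described only, the difference from control BM HSC moved to 3.50 with 0.1 FPKM added and 3.60 by voom, and that from PHZ BM HSC to 2.55 and 2.59. Signs turned only where the difference was small and without a call. Ctsl between PHZ SP and control BM HSC turned to -0.0237 when scaled by the total without Rn45s and ranged from -0.365 to 0.272 on leaving out a library. Ctsz ranged from -0.0455 to 0.569 there. Ctsz between the PHZ groups turned to -0.00791 by voom and ranged from -0.139 to 0.155. Ctsb between the marrow groups turned to -0.00535 by the total scaling and ranged from -0.0337 to 0.126, Ctsl from -0.146 to 0.491 and Ctsz from -0.0624 to 0.552.

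The count of members past the threshold between the marrow groups went from 1 to 0 with no filter on low values, by voom, with eBayes without trend and robust, and with only the 2 groups compared, and was 0 to 1 on leaving out a library. All genes past the threshold numbered 86 between PHZ SP and control BM HSC, with 39 at a pseudocount of 0.1 FPKM, 46 with no filter, 42 with only the 2 groups compared, and 14 to 83 on leaving out a library, with 14 and 27 without PHZ SP HSC replicates 1 and 2, 44 and 33 without PHZ BM HSC replicates 1 and 2, and 43 without control BM HSC replicate 2. They numbered 111 between the PHZ groups, with 62 with no filter, 71 by voom, 63 with eBayes without trend and robust, and 6 to 146 on leaving out a library, with 7 and 6 without PHZ SP HSC replicates 1 and 2 and 20 and 30 without PHZ BM HSC replicates 1 and 2. They numbered 311 between the marrow groups, with 205 with no filter, 204 with eBayes without trend and robust, and 115 to 306 on leaving out a library, with 119 and 115 without PHZ BM HSC replicates 1 and 2 and 182 without control BM HSC replicate 1. The lone spleen library left by 2 of these fits is assumed to vary like the others. The cause was not tested.

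Replicate numbers are shared by the groups. Deviations of the 7 same-numbered pairs correlated between -0.01 and 0.06 over genes, so the numbers were not taken as a pairing. With a replicate block, 73, 112 and 294 genes passed in the 3 comparisons, Ctsl between PHZ SP and control BM HSC turned to -0.21, and the count of members stayed at 0, 0 and 1. The AGGAAGT motif was in 1 member in place of 2 when only the 250 bases before the start were searched. The spleen group's 2 libraries and the 14 to 28 reads of Lgmn in control libraries limit precision.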

Other observations

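Prcp and Ifi30, outside the naming rule, were picked after their values had been seen. Prcp, a lysosomal carboxypeptidase, was at 17.0 to 18.7, 16.6 to 19.7, and 27.5 and 38.9 FPKM in control BM HSC, PHZ BM HSC and PHZ SP HSC (log2 difference between PHZ SP and control BM HSC 0.85, limma adjusted p = 0.0800). Ifi30, the thiol reductase that opens disulphide bonds of antigens for cathepsins, was at 3.34 to 10.3, 2.495 to 10.9, and 11.9 and 15.8 FPKM in the same order (1.05, adjusted p = 0.327).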
